A study of Mus musculus with 16 samples.

Results

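The cytosolic ribosomal protein genes encode the protein part of the ribosome of the cytoplasm. They were taken here by name, as the genes whose symbol is Rpl or Rps followed by a number, alone or with an a, x or l. Rplp0, Rplp1, Rplp2 and Rpsa were added, and entries with a pseudogene symbol (-ps) were left out. The rule found 81 genes among the 31274 features of the deposited expression table, 49 of the large and 32 of the small ribosomal subunit. Of these, 79 had a mean level of at least 1 FPKM (fragments normalized to transcript length and library size) and were tested. The remaining members were Rpl10l and Rpl3l. Rps4l, which the rule counts with the small subunit, is annotated as a pseudogene.

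The study sequenced RNA from the whole uterus of ovariectomized females of 2 mouse strains, named PgrcrePgrALsL/+ and PgrcrePgrBLsL/+ in the labels. Both carry Cre under the progesterone receptor gene Pgr, and 1 copy of a Cre-activated transgene for receptor isoform A (called PRA here) or isoform B (PRB). Females were housed to 8 weeks of age, and uteri were taken 2 weeks after ovariectomy, 6 h after oil or progesterone (P4). There were thus 4 groups (PRA oil, PRA P4, PRB oil and PRB P4) of 4 biological replicates each, 16 libraries in all. Mice without a transgene were not analysed here, Cre acts only in cells that express Pgr, and a whole uterus mixes epithelium, stroma, muscle and vessels, so fewer cells of a type and less RNA per cell cannot be told apart. Markers of epithelium, stroma, smooth muscle and endothelium were present in all groups. The run labels place all PRA libraries in row A and all PRB libraries in row B, with oil before P4 in each row, so position cannot be told apart from strain or from treatment.

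A ribosome has a small subunit, which reads the mRNA, and a large subunit, which joins amino acids. Its proteins are needed in nearly equal numbers, and their mRNAs are among the most abundant in most cells. Most of these mRNAs begin with a run of pyrimidines at the cap (a TOP sequence), through which the growth-sensing kinase mTORC1 controls their translation, often with no change in mRNA level. Estrogen and progesterone are known to control growth and protein synthesis in uterine cells.

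Pyrimidine runs near the annotated start are shown first, because a run at the cap is the sequence feature that these genes are best known to share. RefSeq entries on GRCm38 were found for 60 members, with 72 annotated starts. The 30 bases around each start, 15 before it and 15 from it on, are given 5′ to 3′ on the gene's own strand, with the longest run of C and T in capitals. That run may lie anywhere in the window and is not by itself a TOP sequence. It includes the annotated start in Rpl7a and Rps6, and lies before or after the start in the other genes shown. The genes shown are 5 that were higher with P4, Rpl9, which was lower, Rps6, which had equal means, and Rpl34, which differed between strains; where a gene has several starts, the one nearest to its GENCODE start is shown.
Rps27l (chr9:66946071-66946100, plus strand): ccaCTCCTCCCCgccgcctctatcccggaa
Rps15a (chr7:118116133-118116162, minus strand): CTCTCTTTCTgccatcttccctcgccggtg
Rps2 (chr17:24720048-24720077, plus strand): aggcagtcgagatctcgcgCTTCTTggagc
Rpl7a (chr2:26910792-26910821, plus strand): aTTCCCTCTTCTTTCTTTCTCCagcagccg
Rpl27 (chr11:101442230-101442259, plus strand): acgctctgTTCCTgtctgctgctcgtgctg
Rpl9 (chr5:65391417-65391446, minus strand): acgcagggCCCTgacggattacaagaacgt
Rps6 (chr4:86857353-86857382, minus strand): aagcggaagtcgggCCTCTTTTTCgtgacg
Rpl34 (chr3:130730384-130730413, minus strand): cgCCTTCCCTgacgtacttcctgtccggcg

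The runs in these windows ranged from 4 bases in Rpl9 to 21 in Rpl7a, and genes that were higher with P4 had both long and short ones. A run of at least 6 bases, anywhere in the window, stood in 52.8% of the 72 windows of the members, against 29.2% of all 32851 windows of the same length. A run of at least 8 bases stood in 37.5% of the members' windows and in 12.0% of all windows. In the full promoter entries of 300 bases, searched on both strands, CCGGAAG, the core bound by ETS factors, stood in 36.1% of the members' entries and 8.86% of all. GGGCGG, the core of the SP1 site, stood in 58.3% against 35.7%, and AAGATGGC, the core of the YY1 site, in 9.72% against 2.75%. These are matches of letters near annotated starts, which need not be the starts used in the uterus. The shares of windows with a run are therefore not shares of TOP mRNAs.

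Ribosomal protein mRNAs were abundant in every library. The mean level was at least 30 FPKM in 78 members and at least 100 FPKM in 71, with a median of 284 FPKM. Rpl41, which has the shortest coding sequence of all (75 bases), was highest at 2087 FPKM, followed by Rplp1 of the acidic stalk (1023), Rps15 (817) and Rpsa, also known as the laminin receptor (729). The least abundant were members known mainly from other tissues. Rpl10l, a testis paralog of Rpl10, was listed at 0 in 15 of 16 libraries, and Rpl39l, a testis paralog of Rpl39, had a mean of 1.29 FPKM and was listed at 0 in some libraries and at up to 4.24 FPKM in others.

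The summed level of the 81 genes did not separate oil from P4. In PRA the sum was 25527 ± 1963 FPKM with oil and 25942 ± 1169 with P4 (SD, n = 4). The PRB sums were 26237 ± 577 and 26438 ± 1431. The share that these genes held of all FPKM did separate them. It was 4.65%, 5.02%, 5.24% and 4.86% in the PRA oil libraries and 4.24%, 4.45%, 4.49% and 4.61% in the PRA P4 libraries. The shares in PRB were 5.16%, 5.14%, 5.01% and 5.06% with oil and 4.75%, 4.40%, 4.31% and 4.51% with P4. Every P4 library was thus below every oil library of its strain in share, while the sums overlapped. Total FPKM was higher with P4: it averaged 516178 in PRA oil and 583022 in PRA P4, and 515035 and 588254 in PRB.

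**Figure D1:**
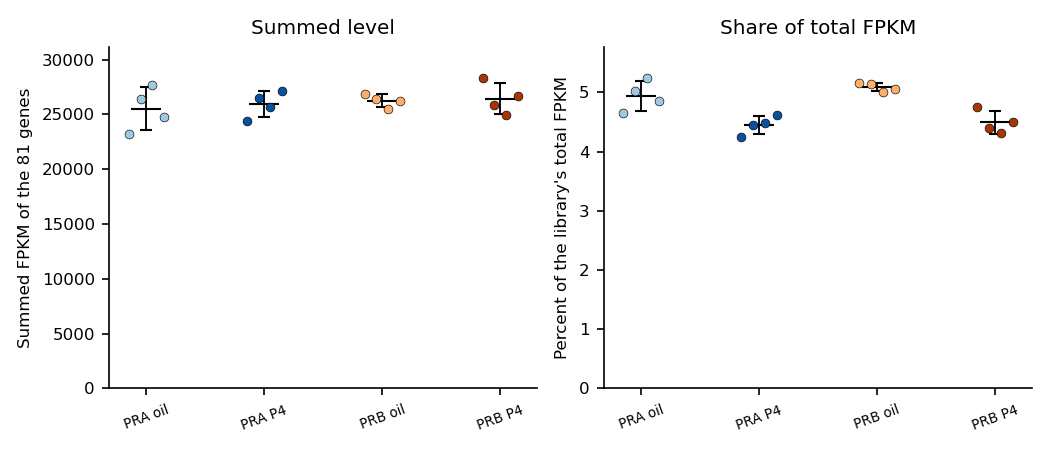
Summed FPKM of the 81 ribosomal protein genes (left) and their percent of the library's total FPKM (right), for the 4 libraries of each group. Points are libraries, and the bar and whiskers are the mean and SD; the sums overlap between oil and P4, whereas the shares with P4 (4.24% to 4.75%) lie below those with oil (4.65% to 5.24%) within each strain.

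With P4, most ribosomal protein genes did not pass the test, and most that did changed by small amounts. Features were compared with limma on log2(FPKM + 1), a scale that understates changes of low features, and a gene is said to have risen or fallen where the p-value adjusted over all 15408 tested features was under 0.05. In PRA, 13 of the 79 members rose and 16 fell, together 36.7%, whereas 69.8% of all tested features changed (36.6% rose and 33.2% fell). In PRB, 11 members rose and 8 fell, together 24.1%, against a background of 69.1% (36.2% and 32.9%). The median size of the change, without its sign, was 0.11 in PRA and 0.07 in PRB on the log2 scale, and 0.43 and 0.41 over all features. Among 4376 other features of at least 30 FPKM the median sizes were 0.44 and 0.42, and 75.9% and 75.5% of them changed. Both subunits took part, with 8 rises and 10 falls among 47 large-subunit genes in PRA and 5 and 6 among 32 small-subunit genes. The summed level of 6 stromal markers moved with P4 too, from a range of 1001 to 1109 FPKM to 705 to 845 in PRA and from 1093 to 1227 to 830 to 882 in PRB, with 2 of the 6 risen and 3 fallen in each strain; the epithelial, smooth muscle and endothelial sums overlapped between treatments, though 2 of 4 endothelial markers fell in PRA and 0 in PRB, and the part of cell type in the results was not tested.

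The direction of the list as a whole depended on the scale. The median change of the members was -0.03 in PRA and -0.02 in PRB as deposited, where the medians of all features were 0.01 and 0.00. With each library scaled to the same total (as TPM are), 7 members rose and 55 fell in PRA, and 6 rose and 58 fell in PRB, with medians of -0.21 in each; the medians of all features moved to -0.15 and -0.18. With quantile normalization, 6 rose and 65 fell in PRA and 5 rose and 67 fell in PRB, with medians of -0.26 in each, beside 0.00 and -0.01 for all features. The members that rose or fell under every one of 26 alternative fits numbered 13 in PRA and 8 in PRB. The other members that passed with P4 in a strain, many of them named below, lost their call or changed direction there under at least 1 alternative.

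The members also shifted together between replicates. In PRA oil, 3 of the 79 members were above their group mean in replicate 1 and 75 in replicate 3, and in PRB P4, 74 were above it in replicate 1 and 9 in replicate 3. The count of falls moved with these libraries. In PRA it was 7, 8 and 10 without PRA oil replicate 3, PRA P4 replicate 1 and PRA P4 replicate 3. In PRB it was 3 without PRB oil replicate 1, 4 without each of PRB oil replicate 2 and PRB P4 replicates 3 and 4, 5 without PRB P4 replicate 2, and 14 without PRB P4 replicate 1. Measured against the median member of the same library, 73 of the 79 had a within-group SD under 0.1 on the log2 scale. Rps6, the ribosomal target of S6 kinase, had the smallest of these SDs (0.016), at a level above that median. Its level in PRA was 417 ± 28.9 FPKM with oil and 417 ± 19.6 with P4, and in PRB 420 ± 11.5 and 420 ± 26.4 (SD, n = 4).

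**Figure D2:**
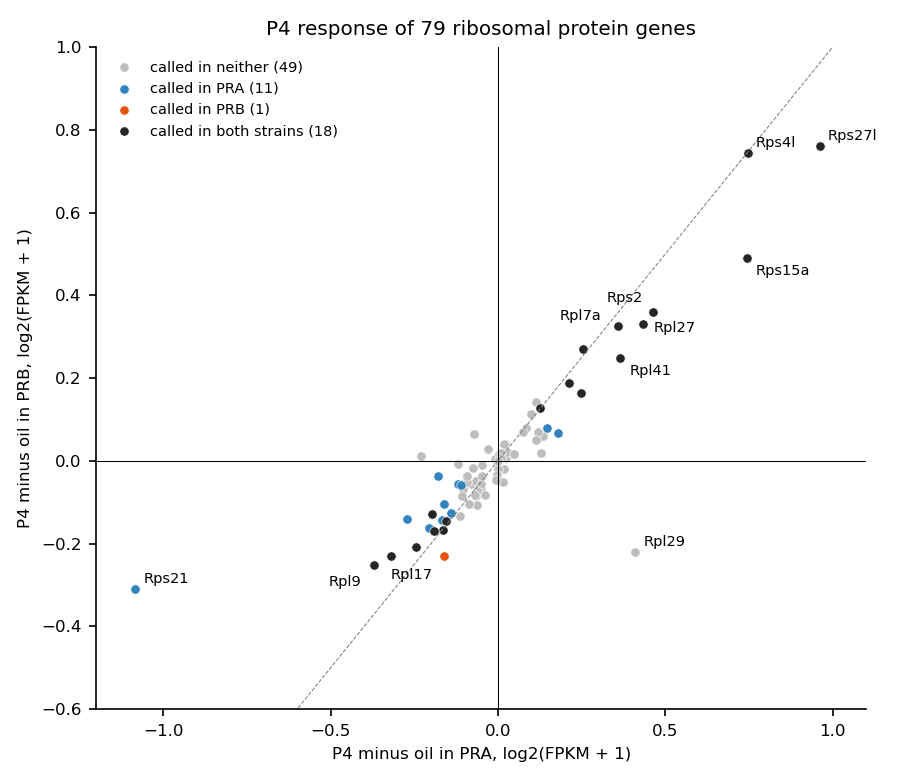
Change with P4 of the 79 tested members in PRA (horizontal axis) and PRB (vertical axis), each as P4 minus oil on the log2(FPKM + 1) scale; the dashed line marks equal change. Black points passed the test in both strains (18 genes), blue in PRA (11), orange in PRB (1) and grey in neither (49). Rps27l, Rps4l and Rps15a lie far above the bulk of genes near 0.

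Rps27l had the largest rise of the 79 tested members in both strains. It encodes a close paralog of Rps27 in the small subunit and is known as a target of p53. Its level was 62.0, 74.0, 77.0 and 78.6 FPKM in PRA oil and 127, 141, 145 and 158 in PRA P4. The PRB libraries held 75.7, 75.0, 77.1 and 80.4 FPKM with oil and 132, 129, 135 and 130 with P4. All P4 libraries were above all oil libraries, and the log2 changes were 0.96 ± 0.07 (SE, adjusted p = 2.5e-08) in PRA and 0.76 ± 0.07 (adjusted p = 2.6e-07) in PRB. Over all alternatives the change lay between 0.70 and 1.01 in PRA and between 0.48 and 0.78 in PRB. Rps27 itself fell, from 325 ± 28.3 to 274 ± 14.5 FPKM in PRA (-0.25, adjusted p = 0.0062) and from 336 ± 18.7 to 291 ± 23.5 in PRB (-0.21, adjusted p = 0.016). The PRB call of Rps27 was lost without PRB oil replicate 1 and without PRB P4 replicate 4. Of the FPKM of the pair, Rps27l held 18.3% ± 1.5 in PRA oil and 34.2% ± 2.2 in PRA P4, and 18.7% ± 1.3 and 31.1% ± 1.7 in PRB. The coding sequences of the pair are 76.2% identical.

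Rps4l and Rps15a rose in both strains, but each has near copies in the genome. Rps4l (chr6:148354656-148355598, GRCm38) is annotated as a transcribed processed pseudogene, and its transcript is 80.0% identical to the coding sequence of Rps4x, a small-subunit gene on the X chromosome. Its level was 33.0, 35.6, 27.9 and 28.1 FPKM in PRA oil and 54.3, 58.1, 56.9 and 42.8 in PRA P4. The PRB values were 31.0, 19.3, 26.1 and 24.2 FPKM with oil and 44.6, 47.7, 38.6 and 38.6 with P4, so the groups did not overlap in either strain. The changes were 0.75 ± 0.13 (SE, adjusted p = 0.00016) and 0.74 ± 0.13 (adjusted p = 0.00017). Rps4x, at 586 FPKM, did not pass the test in either strain.

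Rps15a encodes a small-subunit protein. It was at 23.2, 26.8, 24.7 and 26.1 FPKM in PRA oil and 36.9, 43.8, 44.0 and 47.4 in PRA P4, a change of 0.74 ± 0.11 (SE, adjusted p = 1.7e-05). PRB uteri held 24.1, 25.5, 24.7 and 27.3 FPKM with oil and 31.0, 39.7, 31.0 and 44.3 with P4, a change of 0.49 ± 0.11 (adjusted p = 0.00076). Groups were separate in both strains, with the widest spread in PRB P4. The table also holds Rps15a-ps4 and Rps15a-ps6, which did not pass the test. Summed over the 3 entries, the level was 188 ± 17.0 FPKM in PRA oil and 210 ± 10.3 in PRA P4, and 195 ± 4.17 and 205 ± 12.0 in PRB, with changes of 0.16 and 0.07. How reads were shared between the entries was not given in the sources used here, so the size of the Rps15a change is uncertain.

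Smaller rises concerned abundant genes. Rps2, a small-subunit protein near the mRNA entry channel, was at 365, 358, 420 and 390 FPKM in PRA oil and 469, 523, 552 and 570 in PRA P4. The PRB libraries held 380, 387, 384 and 404 FPKM with oil and 508, 482, 482 and 524 with P4. No library of one treatment reached the range of the other, and the changes were 0.46 ± 0.06 (SE, adjusted p = 1.5e-05) and 0.36 ± 0.06 (adjusted p = 0.00017). Snora64, a small nucleolar RNA annotated within Rps2, rose by 1.01 and 1.19. Rpl7a, a large-subunit protein, went from 290 ± 8.26 to 373 ± 13.8 FPKM in PRA (0.36, adjusted p = 1.9e-06) and from 289 ± 9.19 to 362 ± 10.5 in PRB (0.33, adjusted p = 5.2e-06).

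Rpl27 of the large subunit went from 81.2 ± 4.10 to 110 ± 4.59 FPKM in PRA (0.43, adjusted p = 1.1e-06) and from 84.0 ± 4.38 to 106 ± 2.21 in PRB (0.33, adjusted p = 1.7e-05). Its call in PRB was lost with quantile normalization. Rpl41 went from 1821 ± 201 to 2336 ± 153 FPKM in PRA (0.36, adjusted p = 0.001) and from 1914 ± 59.5 to 2275 ± 108 in PRB (0.25, adjusted p = 0.013), with the call lost under 2 alternatives in PRA and 3 in PRB. Rpl10a, Rpl15, Rpl24 and Rpl18 also rose in both strains, by 0.13 to 0.27, and Rpl13a in PRA, by 0.15. Quantile normalization turned the direction of Rpl15, Rpl24, Rpl18 and Rpl13a in both strains, and Rpl10a lost its call in both with it and with a common total. Rpl13a kept its direction and call in 9 of 26 alternatives in PRA. Rpl18 kept them in 18 in PRA and in 17 in PRB. Most of the lost calls of Rpl13a and Rpl18 came on leaving out 1 library.

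**Figure D3:**
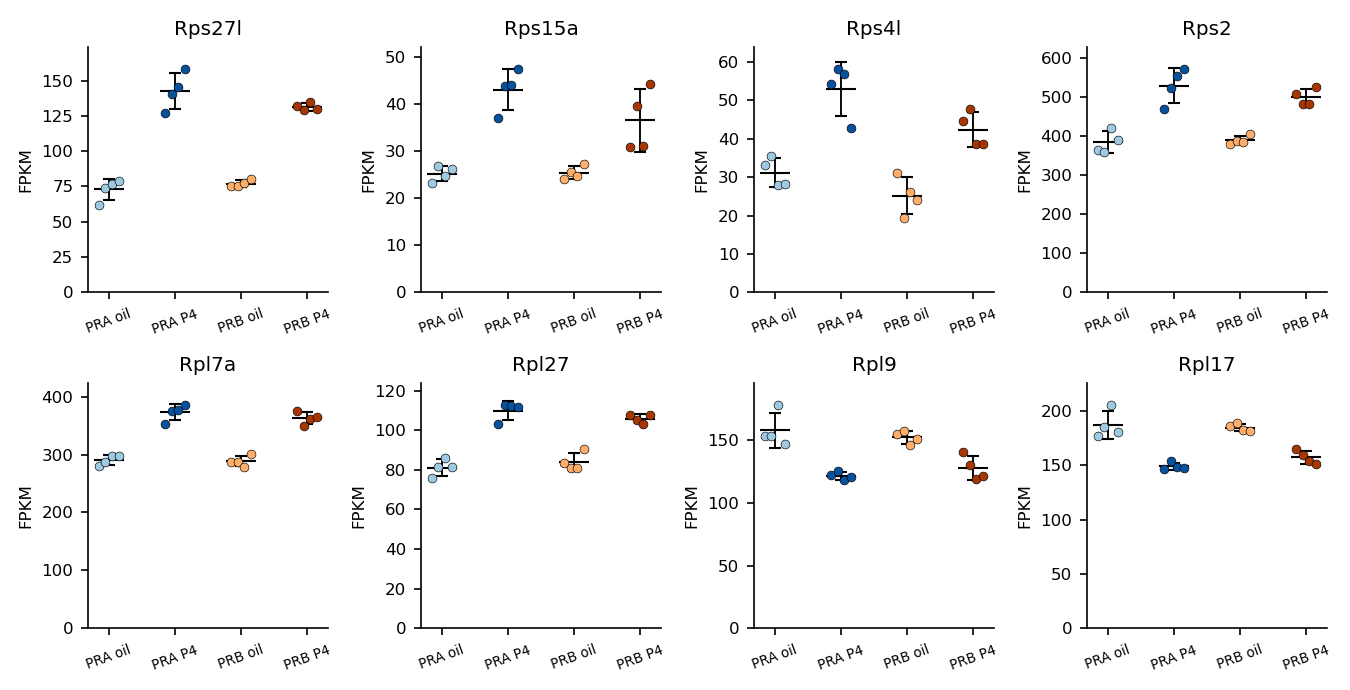
FPKM of 8 members in each library, by group; points are libraries, and the bar and whiskers are the mean and SD (n = 4). In Rps27l, Rps15a, Rps4l, Rps2, Rpl7a and Rpl27 every P4 library is above every oil library of its strain, and in Rpl9 and Rpl17 every P4 library is below.

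The falls were led by Rpl9 and Rpl17, apart from Rps21. Rpl9, a large-subunit protein near the base of the stalk, was at 153, 153, 178 and 147 FPKM in PRA oil and 122, 125, 118 and 120 in PRA P4. PRB uteri had 155, 157, 146 and 150 FPKM with oil and 140, 130, 119 and 121 with P4. Every P4 library was lower than every oil library of its strain, with changes of -0.37 ± 0.06 (SE, adjusted p = 7.4e-05) and -0.25 ± 0.06 (adjusted p = 0.0019). Rpl17, which lines the exit tunnel for the growing chain, went from 187 ± 12.6 to 149 ± 3.25 FPKM in PRA (-0.32, adjusted p = 1.8e-05) and from 185 ± 3.44 to 157 ± 6.08 in PRB (-0.23, adjusted p = 0.00039). Rpl22, known for its part in T cell development, fell in PRB, from 172 ± 6.55 to 146 ± 1.22 FPKM (-0.23, adjusted p = 0.017), and was at 172 ± 25.4 and 153 ± 10.2 in PRA (-0.16, adjusted p = 0.081).

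Smaller falls made up the rest, and of the members named next all but Rpl21 lost the call under at least 1 alternative in a strain where they passed. Rps27, Rpl23a, Rps20, Rps14 and Rpl35a fell in both strains, and Rpl21, Rpl26, Rpl13, Rps23, Rpl27a and Rpl3 in PRA. Rpl5 and Rpl11, which with 5S rRNA form a particle that binds Mdm2, did not pass the test. Rpl5 was at 165 ± 7.99 and 159 ± 7.67 FPKM in PRA and Rpl11 at 270 ± 14.6 and 274 ± 5.05 (oil and P4).

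Rps21, a small-subunit protein, had the largest fall in PRA, with uneven values. It was at 34.4, 42.5, 47.3 and 40.6 FPKM in PRA oil and 8.92, 39.7, 14.5 and 23.5 in PRA P4, where replicate 2 lay within the oil range. The change was -1.08 ± 0.30 (SE, adjusted p = 0.005) and stayed called in all 26 alternatives, between -1.43 and -0.75. In PRB it was at 39.4, 43.7, 36.7 and 41.2 FPKM with oil and 25.8, 31.9, 36.4 and 35.9 with P4, a change of -0.31 ± 0.30 (adjusted p = 0.38; 0.037 with the PRB libraries alone). All P4 libraries of PRB were below its oil libraries, though the highest and the lowest nearly met.

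The responses of the 2 strains were alike in direction. Of the 79 members, 18 passed the test in both strains, 11 up and 7 down, and none in opposite directions. Another 11 passed in PRA and 1 in PRB, and 71 had the same sign in both. Across members, Pearson's r between the responses was 0.87 and Spearman's rho 0.84. Over all tested features they were 0.86 and 0.88, so the likeness was not particular to these genes. The shares of all features that passed in both strains or had the same sign were not counted. No library is shared between the 2 contrasts. None of the 79 passed the test of a difference between the responses in limma, where 2.28% of all features did (1.47% with a higher and 0.811% with a lower value), and none had an unadjusted p under 0.05. The largest differences (PRB minus PRA) were 0.78 ± 0.43 for Rps21 (SE, adjusted p = 0.39) and -0.63 ± 0.68 for Rpl29 (adjusted p = 0.70).

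Between strains, Rpl34 was the member that differed. This large-subunit gene lies at chr3:130726831-130730398 (GRCm38, minus strand). It was at 157, 181, 182 and 174 FPKM in PRA oil and 243, 228, 229 and 229 in PRB oil. With P4 it was at 160, 166, 158 and 162 FPKM in PRA and 245, 217, 205 and 230 in PRB. Every PRB library was above every PRA library, by 0.42 ± 0.06 with oil (SE, adjusted p = 0.0085) and 0.47 ± 0.06 with P4 (adjusted p = 0.00016). The oil difference missed the threshold with the oil libraries alone (adjusted p = 0.096). It was 1 of 79 members higher in each contrast, and 0 were lower. Of all features, 0.117% differed between the oil groups, where PRB was above PRA in 0.0389% and below it in 0.0779%, and 16% differed between the P4 groups (7.75% and 8.29%). With P4, a second member was higher without any 1 of PRA oil replicate 3, PRA P4 replicate 2 and PRB P4 replicate 3, and 1 was lower without PRB P4 replicate 4. Markers of other cells differed between the P4 groups too: the endothelial sum was 81.5 to 105 FPKM in PRA and 106 to 130 in PRB, with 2 of 4 markers higher in PRB, and the leukocyte sum at most 24.0 against 24.3 to 44.4, with 0 of 5 called; their part was not tested. P4 itself did not change it by the test (-0.10 in PRA, adjusted p = 0.12, and -0.05 in PRB, adjusted p = 0.42).

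Neighbours of Rpl34 were listed to show the level around it. Within 1 Mb, 10 other features were tested, and their oil differences ranged from -0.23 to 0.28, with 0 called in limma. With P4, 4 of them differed, namely Pla2g12a, Lef1, Hadh and Papss1, of which Pla2g12a was higher in PRB and the other three lower. The nearest, Ostc, lies 17387 bases away and did not pass the test in either contrast (0.13 with oil and 0.13 with P4). Pgr, the gene of the transgenes, was 83.5 FPKM in PRB oil against 64.9 in PRA oil, which did not pass the test, and 112 against 73.9 with P4 (0.57, adjusted p = 0.0057); these values do not tell the transgene from the gene itself, or one isoform from the other.

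Rpl29, also known as heparin/heparan sulfate interacting protein, had separate levels within every group. It was at 80.9, 204, 85.9 and 87.0 FPKM in PRA oil and 80.4, 93.5, 230 and 223 in PRA P4. In PRB it was at 81.3, 222, 77.6 and 221 FPKM with oil and 92.2, 231, 87.8 and 89.6 with P4. Thus 10 libraries lay between 77.6 and 93.5 FPKM and 6 between 204 and 231, and both levels occurred in each group. No contrast called it.

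**Figure D4:**
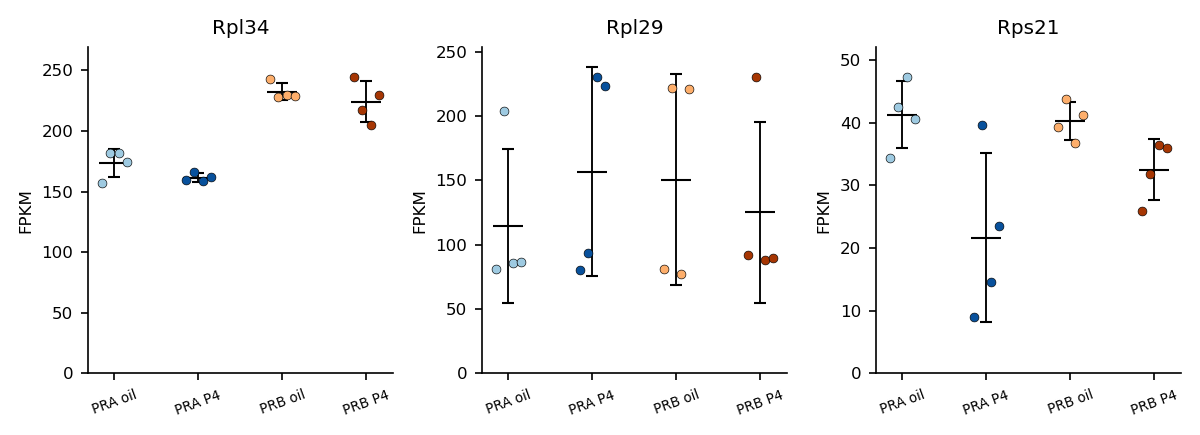
FPKM of Rpl34, Rpl29 and Rps21 in each library, by group; points are libraries, and the bar and whiskers are the mean and SD (n = 4). Rpl34 is higher in all PRB libraries, Rpl29 falls into a low (77.6 to 93.5) and a high (204 to 231) level in every group, and Rps21 is spread most widely in PRA P4.

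Rpl3l, the muscle paralog of Rpl3 with 74.4% identical coding sequence, was low but separated by P4. It was at 0.542, 0.242, 0.323 and 0.18 FPKM in PRA oil and 1.3, 1.25, 0.926 and 0.686 in PRA P4. In PRB it was at 0.184, 0.462, 0.185 and 0.267 FPKM with oil and 1.19, 1.69, 2.87 and 1.29 with P4. With no filter on level, the changes were 0.62 (adjusted p = 0.0044) and 1.08 (adjusted p = 5.2e-05). The summed level of 3 skeletal muscle markers, none of them at 0 throughout, was also higher with P4. It ranged from 10.1 to 63.0 FPKM in PRA oil and 77.6 to 145 in PRA P4, and from 13.7 to 40.0 and 45.2 to 74.1 in PRB. Between the P4 groups the order of the means was opposite. Rpl3l averaged 1.04 FPKM in PRA and 1.76 in PRB (0.41, adjusted p = 0.13 in limma with no filter), and the marker sum 117 and 58.7. That sum was mostly Acta1, which rose in PRA (2.27, adjusted p = 0.0033) and did not pass the test in PRB (1.01, adjusted p = 0.15). Mylpf fell in both strains (-0.56 and -0.49), and Ckm was under the level tested, so of the 2 markers tested 1 rose and 1 fell in PRA, and 0 rose and 1 fell in PRB. Their part in the result was not tested.

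Some ribosomal protein genes fall outside the naming rule. Among them, Rpl36al rose from 406 to 779 FPKM in PRA and from 407 to 773 in PRB (0.94 and 0.92), while Rpl36a, its near copy among the members, did not pass the test. Rpl7l1, a nucleolar relative of Rpl7, rose by 0.94 and 0.99. Fau, Rps3a1, Gnb2l1 and Rpl22l1 did not pass. Of 6 entries with a pseudogene symbol (-ps) in the table, none rose and 1 fell in each strain. Rpl14-ps1, at 709 FPKM in PRA oil, was above Rpl14 itself (313 in the same group), so reads of near copies may have been divided between entries. In the annotation, 60 of the 81 members have at least 1 named pseudogene.

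The members lie on 19 chromosomes, 14 of them on chromosome 7. Across 78 members, Spearman's rho between coding length and the change with P4 was 0.10 in PRA and 0.06 in PRB, and between mean level and change over the tested members it was 0.08 and 0.03; genes are not independent replicates. In GENCODE, 31 of the tested members host a non-coding RNA such as a snoRNA. Of these 4 rose and 9 fell in PRA, and 9 rose and 7 fell among the other 48. In PRB the counts were 2 and 3, and 9 and 5. Of all tested features, 36.6% rose and 33.2% fell in PRA, and 36.2% and 32.9% in PRB. The calls behind these counts moved with the scale and with single libraries, and hosts were not tested against the others.

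Genes that build, staff and control the ribosome were set beside its proteins. Of 27 nucleolar assembly and 5S particle factors, 27 rose in PRA and 27 in PRB, with medians of 1.31 and 1.15. Rrp12, needed for export of both subunits, rose from 3.50 to 23.7 FPKM in PRA (2.47) and Rrs1, which brings in the 5S particle, from 28.6 to 102 (1.81). Of 76 mitochondrial ribosomal proteins, 69 rose and 1 fell in PRA and 69 rose and 2 fell in PRB, with medians of 0.53 and 0.52. Of 38 translation initiation factors, 32 rose and 3 fell in PRA, and 30 and 3 in PRB, with medians of 0.68 in each; Eif4e, which binds the cap, rose from 23.4 to 69.2 FPKM in PRA. These counts stand beside the 69.8% and 69.1% of all features that changed, and no test compared the lists with each other.

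Of 10 genes tested in the list of elongation factors, 5 rose and 2 fell in each strain, with a median of 0.15. Together 70% changed in each strain, near the 69.8% (PRA) and 69.1% (PRB) of all tested features. The balance turned with the scale: with quantile normalization 4 rose and 4 fell in PRA and 3 and 5 in PRB, and with a common total 4 and 3 in PRA and 3 and 5 in PRB. In PRA, 0 fell without PRA oil replicate 2 and 1 without each of PRA oil replicate 3 and PRA P4 replicates 1, 2 and 3; in PRB, 1 fell without PRB oil replicate 1 or PRB P4 replicate 2. As deposited, Eif5a rose (1.19 and 1.02), while Eef2 fell (-0.19 and -0.22). Eef1a1, which carries aminoacyl-tRNA to the ribosome, went from 1248 to 1218 FPKM in PRA and did not pass the test. Tpt1, another TOP mRNA, fell by 0.24 and 0.25. The lowest changes in the list of elongation factors had these same values. Its counts may therefore include Tpt1, which is not an elongation factor. Of 23 genes of mTORC1 and of the translation of ribosomal protein mRNAs, 13 rose and 5 fell in PRA, and 15 and 5 in PRB. Together 78.3% changed in PRA and 87% in PRB, beside the same shares of all features. Larp1, which binds TOP mRNAs, rose by 0.77 and 0.79, Eif4ebp1, a brake on Eif4e, by 1.11 and 1.34, and Sesn2, an inhibitor of mTORC1, by 2.23 and 2.32, while Deptor, another inhibitor, fell by 2.10 and 1.81.

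Of 16 transcription factors of ribosome genes, 7 rose and 5 fell in PRA and 9 and 5 in PRB. Together 75% changed in PRA and 87.5% in PRB, against 69.8% and 69.1% of all tested features. Myc, which drives ribosome production in many cells, went from 39.4 to 80.8 FPKM in PRA (1.02) and from 46.0 to 86.5 in PRB (0.90), while Mycn (-2.18 and -2.43) and the Myc antagonists Mxi1 (-1.97 and -1.62) and Mxd1 (-0.98 and -0.88) fell. Of 14 chaperones and quality control factors of the ribosome, 11 rose and 1 fell in each strain, together 85.7%. Abce1, which splits ribosomes after termination, rose by 1.46 and 1.33. With quantile normalization or a common total, 55 to 60 of the 76 mitochondrial ribosomal proteins, 30 of the 38 initiation factors and 26 or 27 of the 27 nucleolar factors rose in each strain. The falls became 6 to 8 among initiation factors and 3 to 5 among mitochondrial ribosomal proteins. Of the transcription factors, 4 or 5 rose and 6 or 7 fell in PRA, and 6 or 7 rose and 6 fell in PRB, so that their balance turned in PRA.

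**Figure D5:**
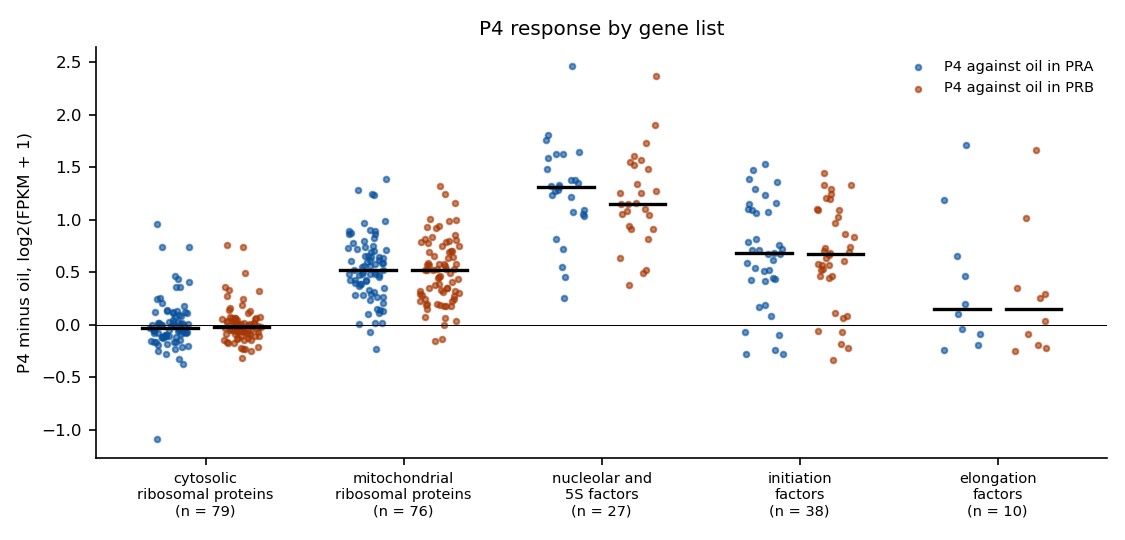
Change with P4 (P4 minus oil, log2(FPKM + 1)) of each tested gene in 5 lists, in PRA (blue) and PRB (brown); black bars are medians. The cytosolic ribosomal proteins lie around 0 (medians -0.03 and -0.02), the nucleolar and 5S factors around 1.31 and 1.15, and the mitochondrial ribosomal proteins and initiation factors between.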

How the data were processed

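The authors deposited 1 table of FPKM per feature for the 16 libraries. TopHat2 2.0.4, Cufflinks 2.0.2, Cuffdiff and mm10 are named, without roles, in the submitters' processing notes; the annotation, strand setting and scaling were not stated. The spacing of low values implied 70.1 M to 73.1 M fragments in the oil libraries and 60.0 M to 68.0 M in the P4 libraries (inferred, so no interval was drawn). Every P4 library was thus below every oil library, so this implied depth cannot be told apart from treatment. Its part in the shares, the total FPKM and the direction of the list was not tested. The treatment field of the labels speaks of mating and pregnancy, whereas titles and characteristics give ovariectomy and treatment, which were followed.

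Features averaging 1 FPKM or more were fitted as log2(FPKM + 1) with limma 3.58.1 in R 4.3.3 (intensity trend, 4 group means, 5 contrasts, two-sided tests, Benjamini-Hochberg adjustment over 15408 features, threshold 0.05). A prior run on simulated data had few changed features and independent noise per feature. In these data most features changed with P4 and the members shifted together, so that run does not show how the test behaves here. P-values measure the spread between replicates, which the labels call biological. Scaling, pseudocount, filter, variance model, samples fitted, replicate block and each library were varied. Gene coordinates, coding lengths and host tags are from GENCODE M21 (GRCm38) and promoters from RefSeq. The members and gene lists were chosen with earlier results of these data known. Named genes were, per contrast, the called members with the largest rises and falls, paralogs, and called genes of the related lists; Rpl29, Rpl5, Rpl11 and others named for level or spread were chosen after their values were seen. A few genes are counted but not reported here.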

Additional observations from a re-analysis of the deposited data

Results flagged for a closer look

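In groups of 4 libraries, 9 of 124 group values held a library set far apart from the others by Dixon's test. The 124 covered named members, the summed level of the members and their share of all FPKM. Chance gives about 1 in 20 for a single group, but the members shifted together, so these tests are not independent. Rpl29 was at 204 FPKM in PRA oil replicate 2, against at most 87.0 in the other libraries of that group, and at 231 in PRB P4 replicate 2, against at most 92.2. PRA oil replicate 3 was apart for Rpl13 (420 FPKM, next 376) and Rpl23a (386, next 343), and in that library 75 of 79 members were above their group mean. PRB oil replicate 3 was apart for Rpl18 (57.0 FPKM, next 58.9) and Rpl27a (179, next 184). Rpl27 was low in PRA P4 replicate 1 (103 FPKM, next 112), Rpl34 high in PRB oil replicate 1 (243, next 229) and Rpl41 low in PRB oil replicate 2 (1825, next 1940).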

How the results depend on the processing

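In PRA, 13 of the 29 called members kept direction and call under all 26 alternatives, in PRB 8 of 19. Quantile normalization gave 6 higher and 65 lower in PRA (median -0.26) and 5 and 67 in PRB (-0.26); scaling to a common total gave 7 and 55 (-0.21) and 6 and 58 (-0.21). Both, and median-ratio scaling, gave 2 higher in PRB against PRA with P4. In PRB, 5 were lower with median-ratio scaling, with no filter and with the replicate block; the block gave 1 lower in PRB against PRA with P4. Scaling libraries to the median member, chosen after seeing the data, gave 28 lower in PRA, 22 in PRB, and 2 higher in PRB against PRA with P4. With 2 groups fitted, 9 were lower in PRA and 0 differed with oil. Without microRNA, snoRNA and mitochondrial features, shares were 5.54% (PRA oil), 4.94% (PRA P4), 5.70% (PRB oil) and 5.01% (PRB P4). Leaving out each library gave 10 to 14 higher and 7 to 19 lower in PRA, 10 to 13 and 3 to 14 in PRB, and 1 to 2 and 0 to 1 for strains with P4. Quantile normalization and common-total scaling turned Rpl13a (-0.12 and -0.0281 in PRA, -0.19 and -0.11 in PRB), Rpl18 (-0.10 and -0.047, -0.15 and -0.0608), Rpl15 (-0.13 and -0.0259 in PRB) and Rpl24 (-0.11 and -0.0032 in PRB); quantile alone turned Rpl15 (-0.0142) and Rpl24 (-0.0524) in PRA. Rpl29 in PRB ranged from -0.56 without PRB P4 replicate 2 to 0.0251 and 0.0231 without PRB oil replicates 2 and 4. The cause was not tested. Same-numbered replicates did not pair (r from -0.23 to 0.31, over 0.1 in 6 of 24 pairs; 4 libraries correlated best with their own number). Where the depth is inferred, low members such as Rpl39l and Rpl10l were not resolved.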
